A study of Mus musculus with 24 samples.

Results

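The transcripts described here are those of the mitochondrial genome in the mouse nucleus accumbens (NAc). They were taken as every gene whose GENCODE symbol starts with mt-, which gave 37 of the 52636 genes in the count tables: 13 protein genes, 2 ribosomal RNA (rRNA) genes and 22 transfer RNA (tRNA) genes. RNA-seq was performed on bilateral NAc punches from C57BL/6 mice at postnatal day 50, with 1 library per animal and 6 animals in each of 4 groups. The groups were Con females and Con males, which were left undisturbed, and MSUS females and MSUS males, which went through maternal separation combined with unpredictable maternal stress as early-life stress. The deposited design text gives the separation as 2 h a day over postnatal days 1 to 14, while the study's methods give a longer daily separation. No group received cocaine before the NAc was taken. The litter of each animal was not given in the labels, so the p-values measure the spread between animals of unknown relatedness. All libraries were made from total RNA after depletion of rRNA and were sequenced as pairs.

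Mitochondrial DNA is a small circle that each cell holds in many copies. It encodes the core subunits of respiratory complexes I, III and IV and of ATP synthase, together with the rRNAs and tRNAs that translate them, while all other mitochondrial proteins come from nuclear genes. Both of its strands are transcribed as long precursors, and cutting at the tRNAs that lie between the other genes releases most of the mature RNAs. Transcripts that carry the sequence of the plus strand of the reference are copied from the heavy strand and include nearly all mRNAs. Transcripts that carry the minus-strand sequence are copied from the light strand and include the mRNA mt-Nd6, 8 tRNAs and long stretches without a gene. Neurons depend on this genome for the ATP that sustains ion gradients and synaptic transmission.

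The 37 genes covered 15365 of the 15422 bases from the first base of the mitochondrial genome to the end of its last gene (M:1-15422, GRCm38), 28 of them on the plus and 9 on the minus strand. Of the 36 pairs of neighbours, 9 overlapped, 12 abutted without a gap and 15 were separated by a gap of at most 32 bases. This layout bears on the counts, because the authors' gene counts leave out a read pair that touches more than 1 gene on its strand. The longest overlap was 43 bases, between mt-Atp8 (M:7766-7969) and mt-Atp6 (M:7927-8607), which both encode subunits of ATP synthase. mt-Atp8 is shown first because no fragment of 200 bases can touch it without also touching a neighbour, and capitals mark the bases that it shares with mt-Atp6. All sequences were read from the GENCODE M21 transcripts and are written from 5′ to 3′ in the gene's own direction.
mt-Atp8: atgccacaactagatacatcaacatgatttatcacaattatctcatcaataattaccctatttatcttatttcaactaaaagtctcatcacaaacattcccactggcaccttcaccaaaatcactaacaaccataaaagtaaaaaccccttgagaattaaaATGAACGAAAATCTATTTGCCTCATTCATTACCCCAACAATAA

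The tRNA genes are shown for the 4 with a mean sense count of at least 100 per library and for 2 others that the results turn on. Capitals mark bases shared with a neighbouring gene on either strand. mt-Ti (isoleucine, M:3706-3774), mt-Tm (methionine, M:3845-3913) and mt-Tw (tryptophan, M:4950-5016) lie on the plus strand. mt-Tq (glutamine, M:3772-3842), mt-Ts1 (serine, M:6870-6938) and mt-Tp (proline, M:15356-15422) lie on the minus strand, and the last bases of mt-Ts1 are also the last bases of mt-Co1 on the other strand.
mt-Ti: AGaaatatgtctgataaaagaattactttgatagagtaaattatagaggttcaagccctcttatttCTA
mt-Tm: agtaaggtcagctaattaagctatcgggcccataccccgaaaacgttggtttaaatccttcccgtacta
mt-Tw: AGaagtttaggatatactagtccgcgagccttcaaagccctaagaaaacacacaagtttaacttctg
mt-Tq: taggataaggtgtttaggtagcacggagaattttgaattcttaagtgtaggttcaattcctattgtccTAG
mt-Ts1: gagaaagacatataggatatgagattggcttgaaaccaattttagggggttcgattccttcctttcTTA
mt-Tp: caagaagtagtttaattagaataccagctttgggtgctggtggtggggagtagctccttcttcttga

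mt-Nd5 (M:11742-13565, plus strand) and mt-Nd6 (M:13552-14070, minus strand), which both encode complex I subunits, run towards each other and share their last 14 bases. This is the only place where protein genes on opposite strands meet, and it is shown on the plus strand with the shared bases in capitals (M:13532-13591).
mt-Nd5 and mt-Nd6: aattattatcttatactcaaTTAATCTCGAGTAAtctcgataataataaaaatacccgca

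The protein genes shared further features. Among the 12 on the plus strand, G made up 5.88% to 16.1% of the bases of the coding strand and C 22.1% to 30.0%. In mt-Nd6 the balance was turned around, with 28.1% G and 5.97% C. The first codon was atg in 9 genes and ata, atc, att or gtg in 1 gene each. The last codon was taa in 8 and tag in 2, and in the remaining 3, mt-Co3, mt-Nd4 and mt-Cytb, the annotated gene ended 1 base into an incomplete codon, which polyadenylation is known to complete.

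Each library held 39923666 to 70575745 pairs counted on the strand of a gene (sense counts), so that 3 counts, taken as the floor of detection, correspond to 0.0425 to 0.0751 sense counts per 1000000 (CPM). The CPM values of genes and markers that follow were also scaled between libraries by the trimmed mean of M values (TMM), while shares in percent were not. Pairs on the opposite strand of a gene (antisense counts) made up 4.91% to 5.24% of all stranded counts. Uniquely mapped pairs that matched no annotated exon on its strand (unassigned pairs) ranged from 31.0% to 44.7%. They include pairs in introns and on the opposite strand of a gene. Their share did not overlap between Con females (31.0% to 34.8%) and MSUS females (36.3% to 43.9%). All 9 striatal neuron markers, among them Drd1, Drd2 and Adora2a, were detected, with a summed level of 1596 to 4546 CPM. Summed markers of cortical excitatory neurons (Slc17a7, Neurod6 and Tbr1, none at 0) spanned 128 to 1367 CPM in Con females with a median of 430.4, and 7.59 to 555 CPM in MSUS females with a median of 81.2. In Con males the cortical sum ranged from 34.3 to 901 CPM and in MSUS males from 40.1 to 1349.5 CPM. Summed oligodendrocyte markers had a median of 4564 CPM in Con females and 3834 CPM in MSUS females. Of the 3 choroid plexus markers, 2 had a mean under 1 CPM. As in all bulk tissue, fewer cells of a type and less RNA per cell cannot be told apart.

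The mitochondrial genes together took 2.97% ± 0.333 (SD, n = 24) of the sense counts. The share ranged from 1.95% to 3.07% in Con females with a median of 2.78%, and from 2.84% to 3.45% in MSUS females with a median of 3.07%. In males it ranged from 2.84% to 3.32% in Con with a median of 3.10%, and from 2.53% to 3.36% in MSUS with a median of 3.01%. All 4 groups overlapped, and Con female 2 stood below every other animal. As a share of all uniquely mapped pairs, which include the unassigned pairs, the mean was 1.82% ± 0.299 (SD, n = 6) in Con females and 1.83% ± 0.152 (SD, n = 6) in MSUS females. The females thus differed less on that denominator than on sense counts, where the means were 2.73% ± 0.409 and 3.10% ± 0.233 (SD, n = 6 each).

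**Figure D1:**
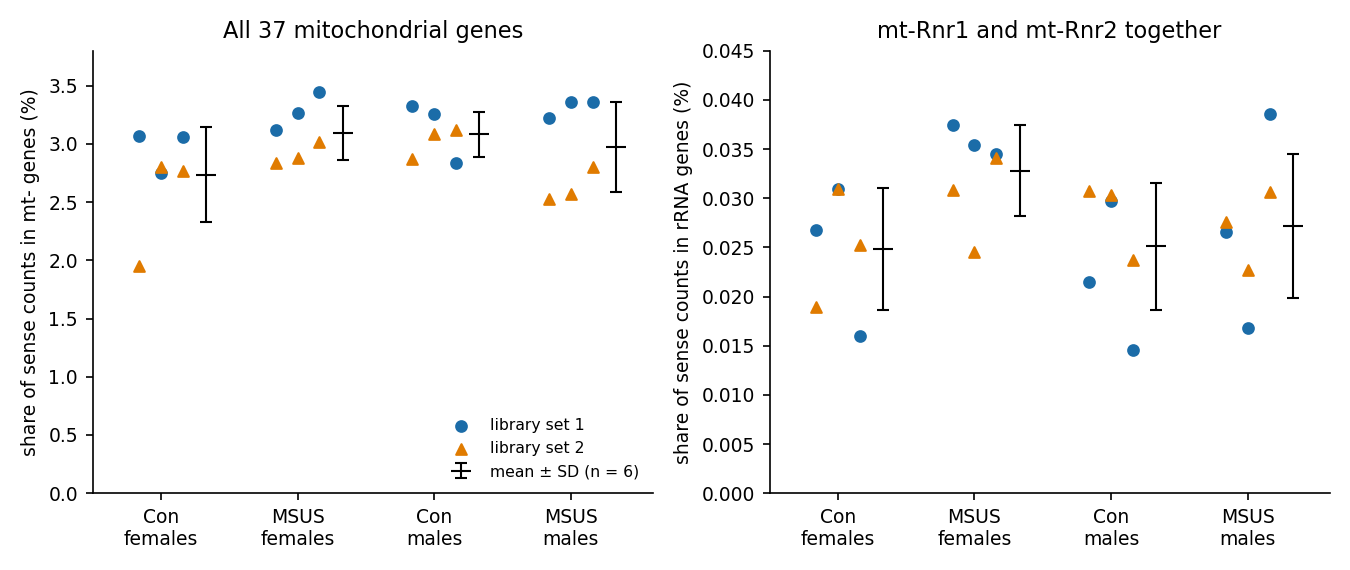
Share of sense counts (%) taken by all 37 mitochondrial genes (left) and by mt-Rnr1 and mt-Rnr2 together (right), by group. Each point is an animal, circles are library numbers 1 to 12 and triangles 13 to 24, and bars give the mean ± SD (n = 6). Con female 2 is the lowest animal on the left, at 1.95%, and the groups overlap in both panels.

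Protein genes held 99% of the mitochondrial sense counts, rRNA genes 0.929% and tRNA genes 0.0760%. Of all sense counts, the rRNA genes took a median of 0.0343% in MSUS and 0.0260% in Con females. The corresponding medians in males were 0.0271% in MSUS and 0.0268% in Con. Mature mitochondrial rRNA normally exceeds every mitochondrial mRNA, and the library kit removes rRNA, so these values are the part that was left after depletion. mt-Rnr1 (M:70-1024), the RNA of the small mitochondrial ribosomal subunit, averaged 6455 sense counts per library. mt-Rnr2 (M:1094-2675), the RNA of the large subunit, averaged 8189 sense counts.

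Among the protein genes, levels were compared per length, as CPM per 1000 bases of the gene. mt-Co1, the catalytic subunit of complex IV, was highest at 7578 ± 778 (SD, n = 24). mt-Cytb, the only complex III subunit encoded here, followed at 5149 ± 509, and mt-Nd1, a membrane subunit of complex I, at 4037 ± 654. The complex I subunits mt-Nd4, mt-Nd5 and mt-Nd2 reached 1887 ± 167, 1865 ± 176 and 1546 ± 307. mt-Nd4 and mt-Nd5 differed by less than their spread over animals, and the spread of mt-Nd2 overlapped that of both. The levels of mt-Co1, mt-Nd4 and mt-Nd2 are divided by the full length of the gene although pairs wholly inside their nuclear copies, described further on, were not counted, so the order of these genes carries that limit. mt-Nd6, the only protein gene on the minus strand, had 630 ± 120, below the 6 genes named before it. The next genes were the rRNAs, with 124 ± 38.9 for mt-Rnr1 and 98.6 ± 36.7 for mt-Rnr2, which also overlapped in their spread.

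A further 6 protein genes lay far lower. Per 1000 bases, mt-Co2 and mt-Co3, which complete the mitochondrially encoded core of complex IV, had 9.68 ± 1.66 and 6.82 ± 1.71 CPM. mt-Atp6, the proton channel subunit of ATP synthase, had 5.14 ± 1.48, and the complex I subunits mt-Nd4l and mt-Nd3 had 2.49 ± 0.596 and 2.34 ± 0.782. mt-Atp8 was lowest, with 30 sense counts over all 24 libraries and none in 10 of them. In raw terms, mt-Co1 averaged 622121 sense counts per library, while mt-Co2, the neighbouring gene for another subunit of the same complex, averaged 349. These low genes were compared with copies of mitochondrial DNA in the nuclear genome, because only uniquely mapped pairs were counted.

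In all, 10 annotated nuclear pseudogenes shared at least 1 identical stretch of 100 bases with a mitochondrial gene. Of these, 7 lay in a block of 4663 bases on chromosome 1 (1:24611535-24616197) and matched the mitochondrial genes at 99.8% to 100% of their aligned bases, 6 of them without any mismatch there. In Gm28438, 342 of 345 bases aligned, and in Gm29216 483 of 492. Between neighbours in this block, the distance from last base to last base was the same as in the mitochondrial genome in 5 of 6 pairs, and the distance from first base to first base in 3 of 6. The other 3 lay on chromosome 2 (2:22587291-22590533) and matched at 96.7% to 97.6%. In mt-Co2, mt-Atp6, mt-Co3, mt-Nd3 and mt-Nd4l, 97.6% to 99.9% of all 100-base windows were copied in this way, and these were the genes at 2.34 to 9.68 CPM per 1000 bases. In mt-Nd2, mt-Co1 and mt-Nd4, 3.19%, 30.8% and 60.8% of the windows were copied, and these genes reached 1546 to 7578. In mt-Nd1, mt-Nd5, mt-Nd6, mt-Cytb and mt-Atp8 no window was found in an annotated nuclear transcript. Sequence outside annotated transcripts was not searched, which matters for mt-Atp8. Most of it lies between the stretches copied in Gm28661 and Gm10925, whose starts are 914 bases apart in both genomes. Whether the bases between these pseudogenes hold a copy of mt-Atp8 was not tested. The pseudogenes on chromosome 1 averaged 44.0 to 443 sense counts per library, and the 5 mitochondrial genes with nearly all windows copied averaged 38.9 to 349. A pair that lies wholly inside a copied stretch maps to both places and is not unique, so the counts of these 5 genes cover only pairs that reach bases outside it, and their levels cannot be read as those of the RNA.

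The start of mt-Co3 is shown as an example of a stretch that cannot be told apart from its copy Gm28437. Both are written in the direction of the gene, mt-Co3 from M:8607-8666 and Gm28437 from the minus strand of 1:24613912-24613971, and no base differed over these 60.
mt-Co3: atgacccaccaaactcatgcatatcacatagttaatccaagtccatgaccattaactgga
Gm28437: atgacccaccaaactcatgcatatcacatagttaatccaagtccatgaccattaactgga
In mt-Co1, bases 6390 to 6449 differ from the copy Gm29216 (minus strand of 1:24616129-24616188) at the base in capitals. With the mitochondrial base first and positions counted from base 1 of chromosome M, the difference was A6393T. It was the only mismatch among the bases of that pseudogene that aligned.
mt-Co1: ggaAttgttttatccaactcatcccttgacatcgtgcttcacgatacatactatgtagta
Gm29216: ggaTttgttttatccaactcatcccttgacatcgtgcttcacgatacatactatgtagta
The copy on chromosome 2, Gm13340 (minus strand of 2:22588466-22588585), carried 4 differences over 120 bases of the same region, T6399C, C6461T, T6506C and G6507A, which are again in capitals.
mt-Co1: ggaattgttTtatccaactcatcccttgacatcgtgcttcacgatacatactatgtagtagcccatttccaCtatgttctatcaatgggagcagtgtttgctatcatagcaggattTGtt
Gm13340: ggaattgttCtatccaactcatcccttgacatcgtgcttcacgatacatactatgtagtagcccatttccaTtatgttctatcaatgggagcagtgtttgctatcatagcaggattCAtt

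**Figure D2:**
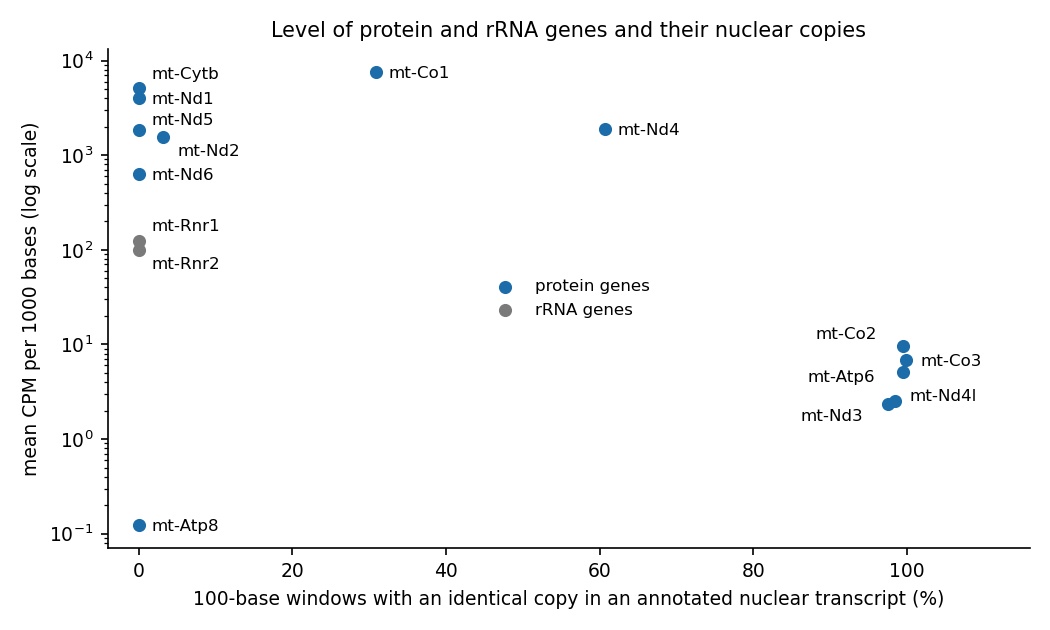
Mean level (CPM per 1000 bases, log scale) against the share of a gene's 100-base windows (%) that have an identical copy in an annotated nuclear transcript, for the 13 protein and 2 rRNA genes. The 5 genes with nearly all windows copied lie between 2.34 and 9.68, and all other genes but mt-Atp8 lie at 98.6 or above. mt-Atp8 is lowest, with no window found in an annotated transcript, and sequence outside annotated transcripts was not searched.

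The tRNA genes were largely out of reach of these libraries. No sense count was found for 7 of 22 in any library (mt-Tf, mt-Td, mt-Tk, mt-Tg, mt-Th, mt-Ts2 and mt-Tl2), which allows up to the floor of 0.0425 to 0.0751 CPM of countable pairs and sets no limit on their RNA, since no fragment of 200 bases can touch any of these 7 alone. Another 4 averaged under 1 count. For 12 of the 14 plus-strand tRNA genes, as for mt-Atp8, no fragment of 200 bases can touch the gene alone, and the same held for 2 of the 8 on the minus strand. The length of 200 bases was assumed, and mt-Tm and mt-Ti are among these 12 although they were counted, with means of 118 and 21.1. At 100 bases, mt-Td had 41 countable positions and mt-Tm 40, so fragment length alone was not shown to account for the lack of counts in mt-Td. The highest means were 430 sense counts per library for mt-Tw, 227 for mt-Tq, 219 for mt-Tp and 118 for mt-Tm. The other 18 tRNA genes had means of at most 64.4, in mt-Tt.

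Strand set the tRNA genes apart. All 8 tRNA genes of the minus strand had more antisense than sense counts, and none of the 14 on the plus strand did. Antisense counts of a minus-strand gene are RNA with the plus-strand sequence. Only minus-strand genes were weighed for them, so such a pair may also touch a plus-strand neighbour and count there as sense. A sense pair of a plus-strand tRNA gene that touched a plus-strand neighbour was left out. The contrast between the strands therefore depends partly on this counting. mt-Tq had a mean of 2720 antisense counts against 227 sense counts, so that 92.3% of its pairs were antisense, with a range of 90.5% to 94.0% over the 24 animals. mt-Tp had 1734 antisense counts against 219, or 88.8%. mt-Ts1, whose end overlaps that of mt-Co1, had 1032 antisense counts against 3.5 sense counts, or 99.7%. Counts without regard to strand leave out a pair that touches more than 1 gene of any strand. They averaged 0 for mt-Ts1, 0.375 for mt-Tq and 1674 for mt-Tp. Nearly all pairs of mt-Ts1 and mt-Tq thus also touched another gene, while most of mt-Tp did not. On the plus strand, 2.24% of the pairs of mt-Tw and 38.0% of those of mt-Tt were antisense.

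In the protein genes the antisense share was lowest in mt-Co1, at 0.479%, with every animal between 0.412% and 0.534%. It was 0.927% in mt-Nd1, 1.79% in mt-Cytb, 2.36% in mt-Nd4 and 2.75% in mt-Nd2. In mt-Nd5 the antisense share was 16.6%, where the lowest animal had 15.4% and the highest 17.9%. In mt-Nd6 it was 36.8% over all libraries, from 25.0% in Con female 2 to 42.0%. mt-Nd6 averaged 17253 sense and 10040 antisense counts, but 18287 counts without regard to strand. Many of its pairs thus also touched a gene on the other strand. mt-Nd5 averaged 180624 sense and 35989 antisense counts, and 207633 counts without regard to strand. Most antisense pairs of mt-Nd5 thus touched no other gene. How far the antisense share of mt-Nd6 rests on pairs that reach both genes was not tested. No animal's value for mt-Nd5 or mt-Nd6 fell within the values of mt-Co1, mt-Nd1, mt-Nd2, mt-Nd4 or mt-Cytb, which reached at most 3.19%.

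Counted RNA with the minus-strand sequence, as sense of a minus-strand gene or antisense of a plus-strand gene, made up 4.28% ± 0.238 (SD, n = 24) of the mitochondrial pairs counted. Pairs inside copied stretches, pairs that touched more than 1 gene of a strand and pairs outside genes are missing from these values. They therefore describe countable positions and not all minus-strand RNA. Of this RNA, 51.1% ± 0.757 lay across mt-Nd5 and 24.4% ± 1.74 in mt-Nd6, which together gave 75.5% ± 1.17. A pair that touched genes on both strands, such as the bases shared by mt-Nd5 and mt-Nd6, could enter more than once. The minus-strand share was 3.71% to 4.54% in Con females and 3.97% to 4.42% in MSUS females, and it was 3.96% to 4.64% in Con males and 4.27% to 4.68% in MSUS males. These ranges overlapped in every comparison.

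**Figure D3:**
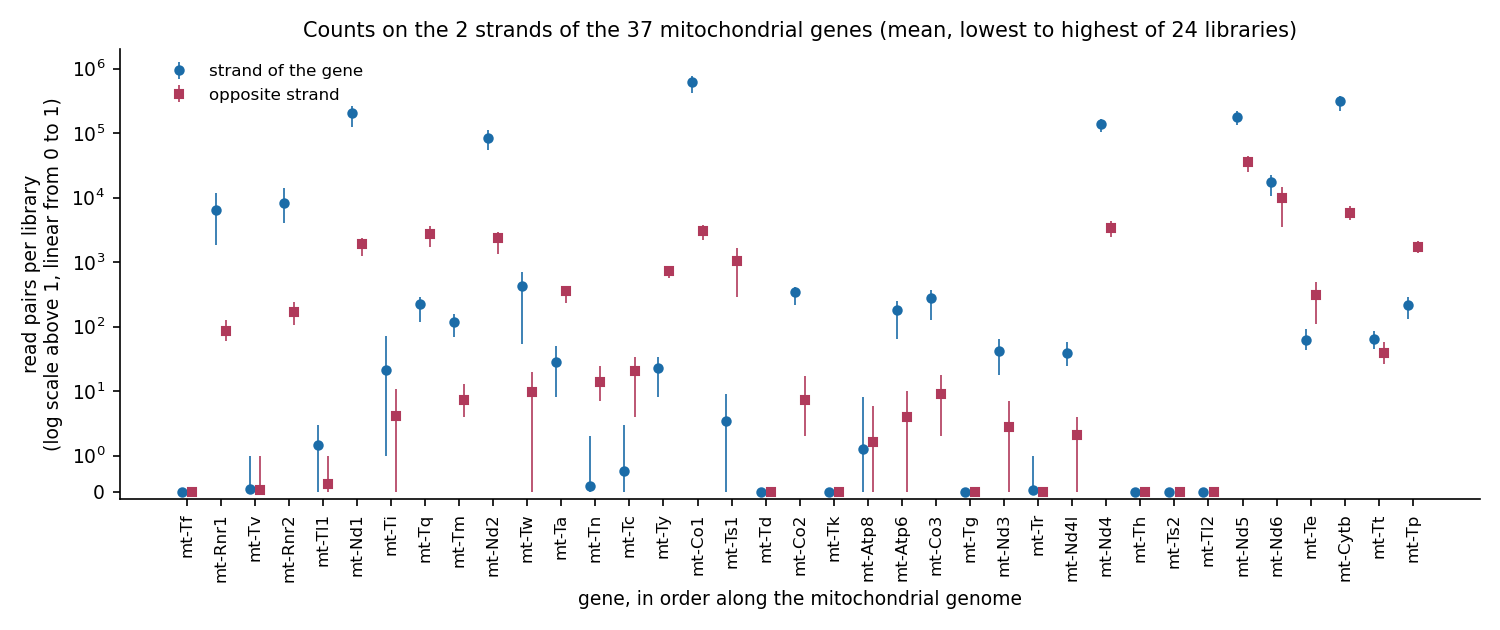
Read pairs per library on the strand of each gene (circles) and on the opposite strand (squares) for the 37 mitochondrial genes in genome order. Points are means, bars run from the lowest to the highest of 24 libraries, and the axis is logarithmic above 1 count and linear below. Opposite-strand counts exceed the gene's own in all 8 minus-strand tRNA genes and come closest to it among the abundant mRNAs in mt-Nd6 and mt-Nd5. A pair that touches genes on both strands can count for each of them.

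Whether early-life stress altered these transcripts was asked in each sex, with edgeR's quasi-likelihood test fitted on all genes and an adjusted p under 0.10 as the threshold for DEGs. Of the 37 genes, 23 had enough sense counts to be tested. In females, 0 of 23 passed the threshold, against 25.1% of all genes tested (5156 of 20571). At an unadjusted p under 0.05 there were 2, mt-Ti and mt-Tq, and DESeq2 called 1, mt-Ti (adjusted p = 0.0951 with DESeq2, where 28.1% of all genes passed). All 23 estimates were above 0 with TMM scaling and 21 with scaling on nuclear genes, where mt-Nd4l and mt-Tm were below 0. The 23 genes share precursors and were counted in the same libraries, so their estimates are not independent. The median log2 difference between MSUS and Con was 0.22, beside -0.0027 over all genes tested, and 0.21 with scaling on nuclear genes. The Con female and MSUS female values overlapped in each of the 23 genes.

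mt-Co1 ranged from 7608 to 12645 CPM in Con females with a median of 11491, and from 10904 to 12778 in MSUS females with a median of 12037. Its log2 difference was 0.10 ± 0.10 (SE, edgeR adjusted p = 0.50), and the groups overlapped through most of their range. mt-Nd5 ranged from 2418 to 3702 CPM in Con females with a median of 3251, and from 3118 to 3867 in MSUS females with a median of 3388. mt-Nd6 ranged from 193 to 347 CPM in Con females with a median of 297, and from 272 to 420 in MSUS females with a median of 320. Its log2 difference was 0.22 ± 0.15 (SE, edgeR adjusted p = 0.33). In each of these 3 genes Con female 2 was the lowest of all 24 animals. The remaining abundant mRNAs had log2 differences of 0.11 for mt-Cytb, 0.12 for mt-Nd4, 0.20 for mt-Nd1 and 0.24 for mt-Nd2.

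mt-Rnr2 ranged from 79.7 to 213 CPM in Con females with a median of 124, and from 97.4 to 252 in MSUS females with a median of 204. Its log2 difference of 0.53 ± 0.29 (SE, edgeR adjusted p = 0.23) was the largest among the protein and rRNA genes tested. mt-Rnr1 ranged from 83.5 to 175 CPM in Con females with a median of 112, and from 101 to 170 in MSUS females with a median of 134. mt-Nd4l, with 98.5% of its windows copied, ranged from 0.454 to 0.923 CPM in Con females and from 0.506 to 0.878 in MSUS females, with a log2 difference of 0.0044. The widest estimates were those of the tRNA genes mt-Ti and mt-Tw. mt-Ti, with a mean of 21.1 counts per library, ranged from 0.0675 to 0.617 CPM in Con females and from 0.246 to 1.28 in MSUS females, with a log2 difference of 1.21 ± 0.54 (SE, edgeR adjusted p = 0.14). mt-Tq ranged from 2.12 to 4.90 CPM in Con females and from 3.87 to 5.40 in MSUS females, with a log2 difference of 0.38 ± 0.17 (SE, edgeR adjusted p = 0.14). mt-Tw had 0.73 ± 0.43 (SE, edgeR adjusted p = 0.26).

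Values that moved with the female groups were set beside these estimates. Without Con female 2, 20 of 23 estimates were above 0, the median log2 difference was 0.13 and 0 of 23 passed the threshold, against 19.7% of all genes in that fit. With the cortical marker sum as a covariate, an alternative chosen after seeing the data, 16 of 23 were above 0, with a median of 0.15 and again 0 of 23 past the threshold, against 7.67% of all genes. With the share of unassigned pairs as a covariate, 23 of 23 were above 0 with a median of 0.38, and 0 of all 20571 genes passed. Since that share did not overlap between the female groups, it and the treatment cannot be told apart. With the library set as a covariate, which is described further on, 6 of 23 genes passed, against 25.1% of all genes in the same fit. These were mt-Ti, mt-Tq, mt-Nd2, mt-Tw, mt-Nd3 and mt-Nd6, with adjusted p from 0.017 in mt-Ti to 0.096 in mt-Nd3 (edgeR).

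In males, 0 of 23 genes passed the threshold and none had an unadjusted p under 0.05, by edgeR or by DESeq2. Of all 20691 genes tested 0% passed, with 191 at an unadjusted p under 0.05 and none called by DESeq2. The median log2 difference was -0.04, with 9 of 23 estimates above 0, and estimates ran from -0.27 ± 0.28 (SE) in mt-Nd3 to 0.24 ± 0.29 (SE) in mt-Rnr2. mt-Co1 ranged from 11676 to 13018 CPM in Con males with a median of 12078, and from 9729 to 13496 in MSUS males with a median of 11885. mt-Nd5 had medians of 3379 CPM in Con males and 3458 in MSUS males, within ranges of 3285 to 3865 and 3167 to 3866. mt-Nd6 ranged from 291 to 428 CPM in Con males and from 245 to 423 in MSUS males. mt-Rnr1 ranged from 69.3 to 165 CPM in Con males and from 44.5 to 173 in MSUS males, and mt-Rnr2 from 77.9 to 197 and from 93.8 to 257. mt-Nd4l ranged from 0.578 to 1.19 CPM in Con males and from 0.475 to 0.830 in MSUS males. The male groups overlapped in each of the 23 genes.

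**Figure D4:**
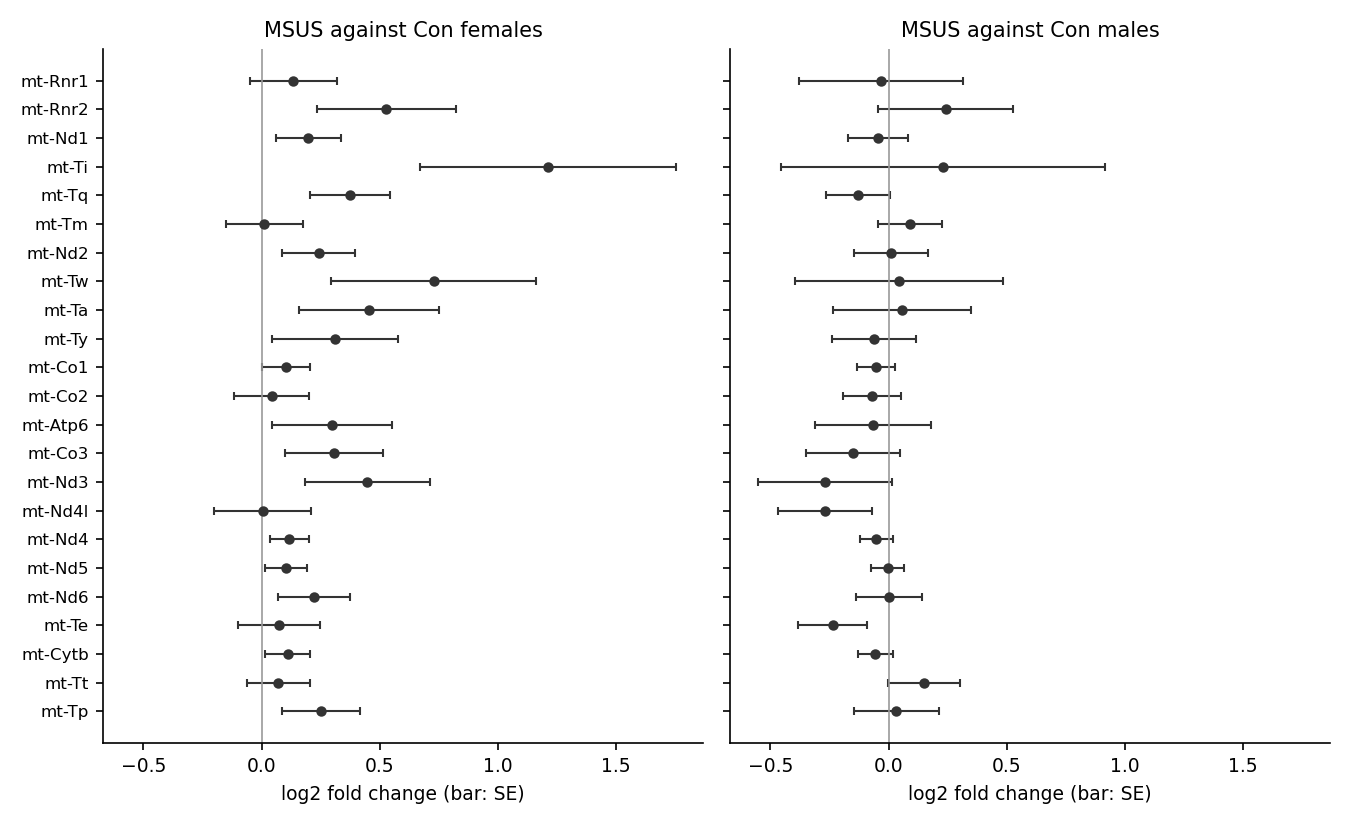
Log2 fold change of MSUS against Con for the 23 mitochondrial genes tested, in females (left) and males (right). Points are edgeR estimates from sense counts, bars are SE, and the line marks 0. With the TMM scaling plotted, all 23 estimates lie above 0 in females (21 with scaling on nuclear genes) and 9 of 23 in males, and none passed the adjusted threshold.

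The remaining comparisons used the same samples, so their estimates are given side by side only. Con females against Con males gave 0 of 23 genes past the threshold (2.64% of 20641 genes tested) and 1 gene at an unadjusted p under 0.05, mt-Tq. The median log2 difference was -0.17 with 2 of 23 estimates above 0, from -0.67 ± 0.44 (SE) in mt-Tw to 0.12 ± 0.25 (SE) in mt-Rnr1. MSUS females against MSUS males gave 0 of 23 (0.135% of 20714 genes tested), none at an unadjusted p under 0.05 and a median of 0.06. DESeq2 called 0 of 23 in both, against 7.32% of all genes between Con females and Con males and 0.806% between MSUS females and MSUS males. The difference between the female and the male effect of MSUS, tested as a group-by-sex interaction in all 24 animals, passed for 0 of 23 genes and for 0% of the 21500 genes tested, of which 4031 had an unadjusted p under 0.05 (edgeR) and DESeq2 called 467 (2.17%). Only mt-Tq had an unadjusted p under 0.05 there, with a log2 difference between the effects of 0.50 ± 0.23 (SE, edgeR adjusted p = 0.25), and DESeq2 called 0 of 23.

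Antisense counts were tested in the same way for the 19 genes with enough of them. MSUS against Con females gave 0 of 19 past the threshold, against 19.9% of the 13408 genes tested, and none at an unadjusted p under 0.05 in edgeR, while DESeq2 called 0 (18.1% of all genes). Of the 19 estimates, 17 were above 0, with a median log2 difference of 0.10. mt-Nd6 antisense had a log2 difference of 0.34 ± 0.30 (SE, edgeR adjusted p = 0.49) and mt-Nd5 antisense 0.09 ± 0.13 (SE, edgeR adjusted p = 0.67). MSUS against Con males gave 0 of 19, against 0% of 13409 genes (435 at an unadjusted p under 0.05, none called by DESeq2), with 7 estimates above 0, a median of -0.03 and none at an unadjusted p under 0.05. With the library set as a covariate, 4 of 19 passed in females, mt-Rnr2, mt-Tq, mt-Nd2 and mt-Te, against 20.5% of all genes in that fit.

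Ratios within a library need no scaling between libraries and were tested by an exact two-sided permutation test over the 12 animals of each comparison, with a smallest possible p of 0.0022. The log2 ratio of mt-Nd6 to mt-Nd5 sense counts, the minus-strand mRNA against its plus-strand neighbour, was -3.50 ± 0.16 (SD, n = 6) in Con females and -3.38 ± 0.18 in MSUS females. These differed by 0.12 (exact permutation p = 0.24, adjusted over the 8 ratio tests p = 0.81). In Con males the ratio was -3.35 ± 0.13 and in MSUS males -3.36 ± 0.22 (exact permutation p = 0.92, adjusted p = 0.92). The log2 ratio of mt-Rnr1 to mt-Rnr2 was -0.48 ± 0.77 in MSUS and -0.09 ± 0.64 in Con females, and -0.63 ± 1.09 in MSUS and -0.31 ± 0.64 in Con males (SD, n = 6 each). The smallest p among the 8 tests was 0.13, for mt-Nd6 over mt-Nd5 between Con females and Con males, and all groups overlapped.

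How far animals differed depended on the gene. The coefficient of variation of CPM over the 24 animals was 8.83% in mt-Nd4, 9.41% in mt-Nd5, 9.89% in mt-Cytb and 10.3% in mt-Co1. It was 16.2% in mt-Nd1, 19.1% in mt-Nd6 and 19.9% in mt-Nd2, where counting error alone would give at most 0.761%. It reached 31.4% in mt-Rnr1 and 37.2% in mt-Rnr2, 47.8% in mt-Tw and 80.8% in mt-Ti. Con female 2 was the lowest animal in 17 of the 23 genes with a mean of at least 10 sense counts.

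Part of that spread followed the numbering of the libraries. The labels number the cDNA libraries from 1 to 24, every group has 3 animals with numbers 1 to 12 (set 1) and 3 with numbers 13 to 24 (set 2), and what else differed between the sets was not stated. The median CPM of the 12 animals of set 1 was above that of set 2 in 22 of 23 genes, with mt-Rnr1 as the exception. mt-Nd1 was higher in set 1 than in set 2 in every group without overlap, with medians of 4332 and 3484 CPM. mt-Rnr1 ranged from 44.5 to 122 CPM in set 1 with a median of 94.8, and from 111 to 175 in set 2 with a median of 146. mt-Rnr2 went the other way, from 77.9 to 257 CPM in set 1 with a median of 204, and from 79.7 to 187 in set 2 with a median of 124. The ratio of mt-Rnr1 to mt-Rnr2 counts was therefore 0.211 to 1.00 in set 1 and 0.732 to 1.60 in set 2, and the sets did not overlap within 3 of the 4 groups. The ratio of mt-Nd6 to mt-Nd5 sense counts was 0.0904 to 0.117 in set 1 and 0.0775 to 0.102 in set 2. For that ratio the sets did not overlap within 2 of the 4 groups. The permutation tests of both ratios took no account of the sets. mt-Ts1 antisense ranged from 408 to 584 antisense CPM in set 1 and from 98.5 to 351 in set 2, and mt-Nd6 antisense from 3481 to 5511 and from 1200 to 4265. Both were higher in set 1 in all 4 groups without overlap.

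**Figure D5:**
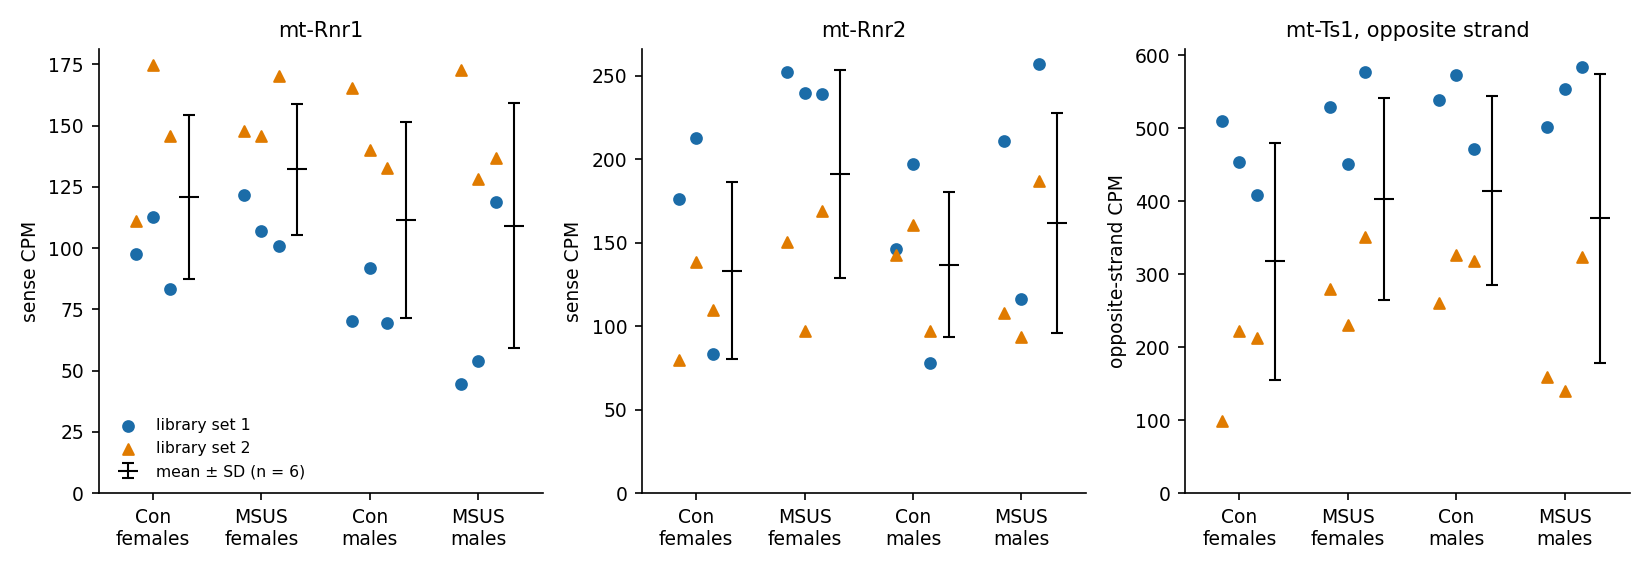
CPM of mt-Rnr1 sense (left), mt-Rnr2 sense (middle) and mt-Ts1 opposite-strand counts (right) by group. Each point is an animal, circles are library numbers 1 to 12 and triangles 13 to 24, and bars give the mean ± SD (n = 6). Triangles lie above the circles in 3 of 4 groups for mt-Rnr1, mostly lower for mt-Rnr2, and below the circles in all 4 groups for mt-Ts1.

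Within each set, the MSUS and Con groups could be compared on 3 animals against 3. In females, the log2 difference of mean CPM was 0.21 in set 1 and 0.23 in set 2 for mt-Nd6, 0.23 and 0.24 for mt-Nd2, 0.29 and 0.48 for mt-Tq, and 0.63 and 0.35 for mt-Rnr2. For mt-Co1 it was 0.02 in set 1 and 0.19 in set 2, which holds Con female 2. In males, mt-Nd6 gave 0.10 in set 1 and -0.12 in set 2, and mt-Co1 0.04 and -0.16. The share of sense counts in mitochondrial genes was 2.96% ± 0.184 in Con and 3.28% ± 0.164 in MSUS females of set 1 (SD, n = 3 each), and 2.51% ± 0.480 and 2.91% ± 0.0926 in those of set 2.

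A list of 43 nuclear genes was also followed, all of which were tested. It holds genes for mitochondrial transcription, RNA handling and DNA replication, and transcription regulators such as Nrf1 and Esrra. In MSUS against Con females, 6 were higher and 2 lower, together 18.6% of the list, with a median log2 difference of 0.03. Among all genes tested the share was larger, at 25.1% (13.1% higher and 11.9% lower). Mterf3, a negative regulator of mitochondrial transcription, rose by 0.27 ± 0.05 (SE, edgeR adjusted p = 0.0066). Ptcd3, a protein of the mitochondrial ribosome, rose by 0.13 ± 0.03 (SE, edgeR adjusted p = 0.019), and Ssbp1, which binds single-stranded mitochondrial DNA, by 0.14 ± 0.04 (SE, edgeR adjusted p = 0.032). Polrmt, the mitochondrial RNA polymerase, fell by 0.13 ± 0.03 on the log2 scale (SE, edgeR adjusted p = 0.021). In the male, sex and interaction comparisons, 0 of 43 passed. In the interaction test Mterf3 differed by 0.27 ± 0.10 (SE, edgeR adjusted p = 0.20).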

How the data were processed

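The authors trimmed adapters, aligned the pairs with STAR 2.6.1b to mm10 with the GENCODE M15 annotation, and deposited STAR's raw gene counts of uniquely mapped pairs per library, without regard to strand, for the opposite strand and for the strand of the gene. Per the labels, libraries came from a KAPA RNA HyperPrep kit with RiboErase, and CASAVA 1.8, HTSeq and DESeq2 were also named. Total sense counts were 39923666 to 70575745 per library. The floors cover counting error only, while SD and SE values include the spread between animals.

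Gene symbols, coordinates and transcript sequences came from GENCODE M21 (GRCm38), which matched 52489 of the 52636 gene ids. The members and lists were chosen with earlier results of these data known, and 1 listed marker is not reported here. Values were printed for every protein and rRNA gene and for tRNA genes with a mean sense count of at least 100, and ranges by group for genes past the threshold and for mt-Nd6, mt-Nd5, mt-Rnr1, mt-Rnr2, mt-Nd4l and mt-Co1, to which mt-Ti and mt-Tq were added after their values were seen. Sense and antisense counts were fitted with edgeR 4.0.16 (robust quasi-likelihood F test, TMM, filterByExpr with a minimum count of 10, R 4.3.3), with Benjamini-Hochberg adjustment over all genes tested and a threshold of 0.10, on the 12 animals of a comparison or on all 24 for the interaction. The SE of an edgeR estimate was worked back as the absolute log2 difference divided by the square root of its F statistic. In data simulated for MSUS against Con females, the fit recovered 83% of genes changed by a log2 of 0.5 and 98.9% of those changed by a log2 of 1 among 20411 genes, and for antisense counts 53.6% and 96.9% among 13148 genes. The simulation gave every gene the same dispersion between animals. The real coefficient of variation reached 37.2% in mt-Rnr2 and 80.8% in mt-Ti, so these shares do not measure recovery of the mitochondrial genes. Ratios were tested by exact permutation (scipy 1.17.1). Nuclear copies were found as annotated transcripts that share an identical window of 100 bases, in place of a planned search of the whole genome, which was not used here. Estrous stage was not used, because the labels give it to only part of the females. Alternatives were DESeq2 1.42.0, its size factors, scaling on nuclear genes, no filter, counts without strand, a replicate block, and the library set or the share of unassigned pairs as a covariate.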

Additional observations from a re-analysis of the deposited data

Results flagged for a closer look

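In groups of 6 animals, 132 sets of values (33 measures in 4 groups) were searched for an animal whose gap to the nearest of the others exceeded Dixon's 95% limit as a fraction of the whole range, which chance passes in about 1 of 20 groups, and 4 were found. The share of sense counts in mitochondrial genes was 1.95% in Con female 2, while the other Con females had 2.75% to 3.07%. mt-Co1, the gene with the most counts, was at 7608 CPM in the same animal, against 11187 to 12645 CPM in the other Con females. In Con male 1, mt-Co1 stood above its group, at 13018 CPM against 11676 to 12096 CPM. mt-Tp was at 5.68 CPM in MSUS female 5 and at 3.52 to 3.97 CPM in the other MSUS females. The cause was not tested in any of them.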

How the results depend on the processing

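Several counts and directions depended on the settings. In MSUS against Con females, the sense genes past the threshold went from 0 to 1 with DESeq2, to 4 with a replicate block (mt-Ti, mt-Tq, mt-Nd2 and mt-Nd6; 18.5% of all genes) and to 6 with the library set as a covariate, and from 0 to between 0 and 1 without single animals: mt-Ti without Con female 1, mt-Nd3 without Con female 3 and mt-Tq without Con female 5. Antisense genes went from 0 to 4 with the block (17.5% of all genes) and to 4 with the library set, and to between 0 and 1 without single animals (mt-Ty without Con female 3). The interaction gave 0 to 1 without single animals (mt-Tq without MSUS male 1, where 3031 genes passed in all). Same-numbered animals share only a number: the correlation of their deviations ran from -0.37 to 0.40 and animals did not all match best with their own number, so the block is no pairing. As a share of all uniquely mapped pairs the mean was 1.84% in place of 2.97% for all genes, 1.82% for protein, 0.0170% for rRNA and 0.00141% for tRNA genes.

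The ratio tests passed 0.05 in 1 setting, mt-Nd6 over mt-Nd5 in Con females against Con males, which spanned -0.20 to -0.11 when single animals were left out and had an exact permutation p of 0.026 without Con female 3. Differences near 0 turned sign. In males mt-Nd6 over mt-Nd5 was 0.050 without regard to strand, 0.056 within library set 1 and -0.064 to 0.056 without single animals, and mt-Rnr1 over mt-Rnr2 was 0.072 within set 2 and -0.58 to 0.0028 without single animals. In MSUS females against MSUS males, mt-Rnr1 over mt-Rnr2 was -0.038 within set 2 and -0.17 to 0.41 without single animals, and mt-Nd6 over mt-Nd5 -0.084 to 0.036. In MSUS against Con females, mt-Nd4l turned to -0.012 with nuclear scaling, -0.044 without strand, -0.0011 in a fit of all 24 animals and -0.10 to 0.093 without single animals. mt-Tm gave -0.0047 with nuclear scaling and -0.084 to 0.12 without single animals, mt-Co2 -0.0025 without strand and -0.069 to 0.11 without single animals, and mt-Tp -0.0084 without strand. With the cortical marker sum, chosen after seeing the data, mt-Nd4l was -0.29, mt-Co2 -0.13, mt-Tm -0.088, mt-Cytb -0.023 and mt-Nd4 -0.010. The cause was not tested for any of these. Depth limits mt-Ti, where counting error alone was 21.8% of the mean.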
